A study of Mus musculus with 6 samples.

Results

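The Notch receptor genes Notch1, Notch2 and Notch3, the ligand genes Dll1, Dll4, Jag1 and Jag2, the nuclear factor gene Rbpj and the target genes Hes1 and Nrarp were examined in mouse colonic mucosa. These 10 genes were taken by symbol, with all 20 probe sets that the platform annotation assigns to them, out of 18193 named genes on the array. RNA of the mucosa was measured on Affymetrix arrays that read the 3' ends of transcripts, 1 array per sample, with 3 samples labelled p38a knockout, titled KO-A, KO-B and KO-C and called the KO-labelled arrays below, and 3 labelled wild type, titled WT-A, WT-B and WT-C. The mice were of strain C57BL/6 and untreated in both groups, and the labels give intestinal epithelial cells as the cell type. p38a is a stress-activated protein kinase and the product of Mapk14. The age of the mice, the Cre driver or other means of deletion, and whether tissue of several mice was pooled are not given in these sources. The labels also do not say that the arrays came from separate animals, so p-values speak only of the variation among these samples, and that may be technical. The comparison asks whether transcripts of the Notch pathway differ between mucosa labelled p38a knockout and wild type.

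Notch signalling passes between neighbouring cells. A ligand of the Delta-like or Jagged family on one cell binds a Notch receptor on the next, the receptor is cut in turn by ADAM proteases and by gamma-secretase, and its intracellular part enters the nucleus. There it joins the DNA-binding protein Rbpj and Mastermind-like coactivators and turns on targets such as Hes1. In the intestinal crypt Notch activity keeps progenitors dividing and steers them towards absorptive cells, because Hes1 represses Atoh1, the factor of the secretory fate. In mouse, Notch1 and Notch2 act together in the epithelium, and Dll1 and Dll4 on secretory cells are the ligands that their neighbours need.

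Values are log2(signal + 16) after quantile normalization unless deposited signals are named, so a fold computed from them understates the change of a dim gene. A probe set was tested where its mean lay at or above the 40th percentile of the table, which corresponded to a signal of about 18.4. All 10 genes had a tested probe set, and 17 of the 20 probe sets passed. Each gene is described first by its brightest probe set. Levels are set side by side only within a probe set, because probe sets of different genes respond with different strength.

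Some properties of the arrays touch every value. Deposited signals had a 2% trimmed mean of 192 to 222 in the KO-labelled arrays and of 117 to 188 in wild type. Degraded RNA raises the 3' over 5' signal ratio of the Gapdh control probes, which was 0.859 to 0.954 in the KO-labelled arrays. In wild type it was 1.10 (WT-A), 0.989 (WT-B) and 1.45 (WT-C), and only WT-B was near the KO-labelled range. Mapk14, the gene the label names, was no lower there. On its brightest probe set it read 9.79 ± 0.11 in the KO-labelled arrays and 9.37 ± 0.06 in wild type (SD, n = 3 each), so the groups are called by their labels throughout. If the probe set lies outside the deleted part this checks nothing, and its position was not used here. The epithelial genes of the marker list (Epcam, Cdh1, Vil1 and 7 others) were all above the filter. Epcam read 13.25 ± 0.08 in the KO-labelled arrays and 13.21 ± 0.06 in wild type (SD, n = 3 each), so epithelial transcripts were present in both groups. Genes of other cell types, such as Jchain, Dcn and Cd3g, were also above the filter. The markers therefore do not show that epithelial cells alone were measured. The summed signal of 4 B cell genes ran from 891 to 3621 in the KO-labelled arrays and from 519 to 4018 in wild type, and so was unequal within each group. Most of this sum was Jchain, which read 9.62 to 11.74 in the KO-labelled arrays and 8.81 to 11.9 in wild type, so the spread is largely that of a single gene. Of the other marker lists 1 of 6 fibroblast genes, 3 of 6 macrophage genes and 1 of 4 enteric neuron and glia genes were higher in the KO mean, with 0 called by limma. In such bulk samples fewer cells of a type and less RNA per cell cannot be told apart.

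No Notch gene passed the test between the groups. limma called 0 of the 17 probe sets at an adjusted p of 0.05, and also without adjustment 0 of 17 were under 0.05. On the signals as deposited, whose scales differ between the arrays, 5 of the 17 (of Hes1, Notch1, Dll1, Jag1 and Notch2) were under 0.05 without adjustment, where 16% of all probe sets were, and 0 of the 17 after it. Over the whole table limma called 0 of 27002 probe sets (0%), while 3.53% were under 0.05 without adjustment, 1.70% higher and 1.82% lower. The adjusted p of the 17 probe sets lay between 0.915 and 0.998. Their log2 differences ran from -0.42 to 0.47, with 13 above 0 and 4 below, and their median was 0.16. Over all probe sets tested the median was 0.02 and 53.6% lay above 0. For the brightest probe sets of the 10 genes the differences ran from -0.06 for Jag2 to 0.47 for Jag1, with standard errors of 0.17 to 0.32. The 95% confidence intervals of all 17 probe sets held 0. Those of the brightest probe sets reached from -0.69 (Jag2) to 1.20 (Jag1), which corresponds to 1.61-fold lower and 2.30-fold higher. These are the extremes over the 10 genes, and each gene's own interval is given with its values.

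**Figure D1:**
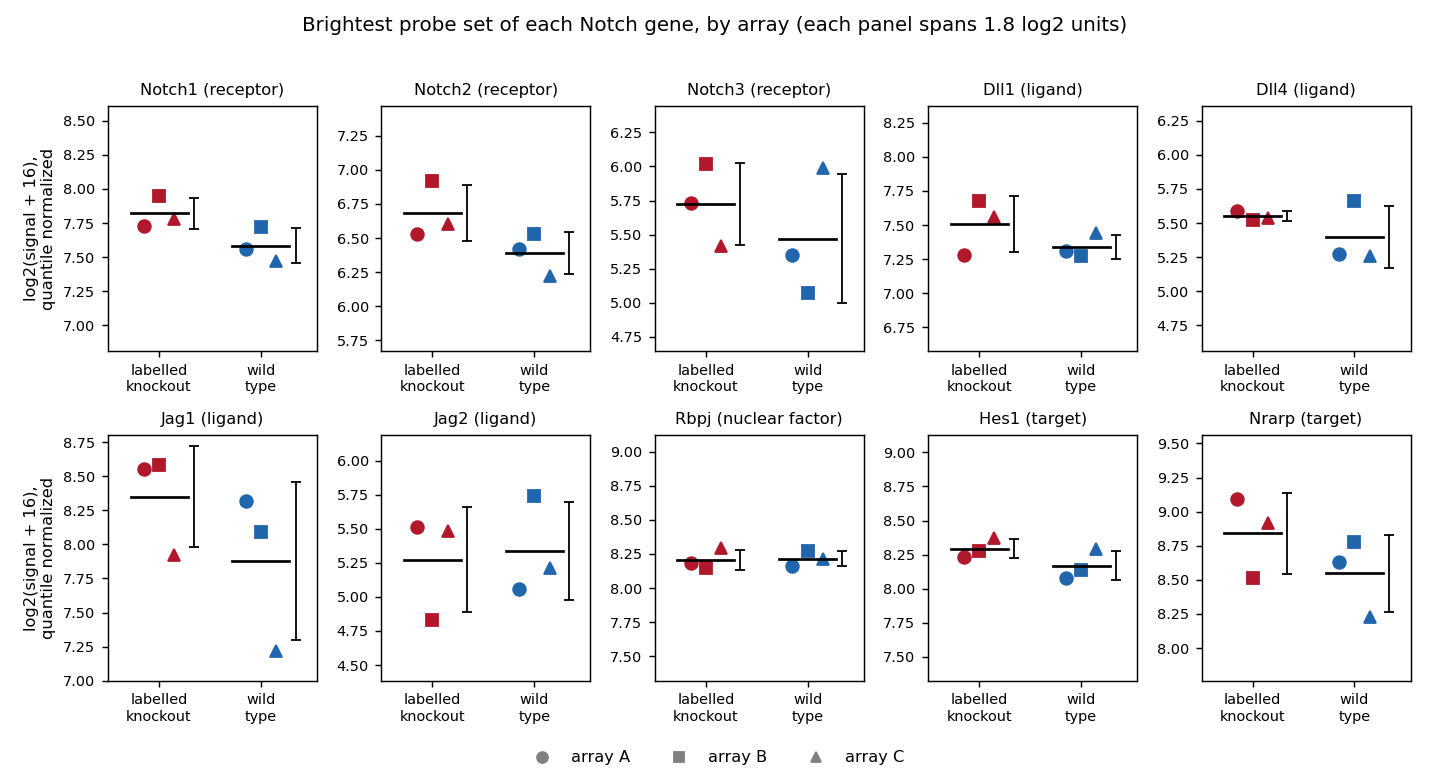
Each panel plots log2(signal + 16) after quantile normalization for the brightest probe set of 1 gene, with 3 KO-labelled arrays on the left and 3 wild-type arrays on the right. Symbols mark the arrays A, B and C, horizontal lines the group means and bars the SD, and the groups are only narrowly apart for Notch1 and Notch2 and overlap for the other 8 genes.

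The receptor genes read slightly higher in the KO mean by their brightest probe sets, and none passed the test. Notch1 encodes the receptor with the broadest role in intestinal progenitors. Its brightest probe set, 1418634_at, read 7.73, 7.95 and 7.78 in KO-A, KO-B and KO-C, against 7.56, 7.72 and 7.47 in WT-A, WT-B and WT-C. The lowest KO-labelled array lay just above WT-B, so the groups did not overlap. The log2 difference was 0.24 (SE 0.18, 95% interval -0.17 to 0.65, limma adjusted p = 0.915). The deposited signals were 253, 258 and 239 in the KO-labelled arrays and 138, 207 and 113 in wild type. The second Notch1 probe set, 1418633_at, went the other way. It read 6.54, 6.42 and 5.38 in the KO-labelled arrays, against 6.62, 6.41 and 6.58 in wild type, or -0.42 in log2 terms (SE 0.31, limma adjusted p = 0.915). Its negative difference came from KO-C, and the other arrays of both groups lay within a narrow band. The sign for Notch1 therefore depends on the probe set.

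Notch2, the partner receptor of Notch1 in the crypt, read 6.53, 6.92 and 6.60 in the KO-labelled arrays on probe set 1455556_at, against 6.42, 6.53 and 6.22 in wild type. KO-A and WT-B were equal to 2 decimals and the groups were only just apart. In log2 terms the groups differed by 0.30 (SE 0.21, 95% interval -0.17 to 0.77, limma adjusted p = 0.915). The other Notch2 probe set, 1451889_at, lay below the filter and read 4.76 ± 0.51 in the KO-labelled arrays and 4.82 ± 0.83 in wild type (SD, n = 3 each). Notch3, a receptor known best from the mural cells of blood vessels, read 5.73, 6.02 and 5.42 in the KO-labelled arrays on probe set 1421965_s_at, against 5.35, 5.07 and 5.99 in wild type. WT-C lay among the KO-labelled arrays. This gave a log2 difference of 0.25 (SE 0.28, 95% interval -0.40 to 0.90, limma adjusted p = 0.915), and the second Notch3 probe set lay below the filter at 4.89 ± 0.13 in the KO-labelled arrays and 4.80 ± 0.12 in wild type (SD, n = 3 each). The suffix of 1421965_s_at marks a probe set that may also read related transcripts.

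Markers of the cells that carry Notch3 elsewhere varied within both groups. Of 10 mural and smooth muscle genes 8 were above the filter and 6 were higher in the KO mean, with a median log2 difference of 0.63 and 0 called by limma. Their summed signal ran from 739 to 1255 in the KO-labelled arrays and from 707 to 1041 in wild type. Mylk was the largest part of this sum in each array. It read 8.58 to 9.06 in the KO-labelled arrays and 8.59 to 9.39 in wild type. The 6 higher genes (Acta2, Myh11, Tagln, Cnn1, Actg2 and Rgs5) were also higher against WT-B, by 0.69 (Cnn1) to 1.36 (Rgs5). The 4 lower genes lay between -0.12 and -0.02. The groups did not overlap for Tagln (1.04) and Myh11 (0.71, below the filter), where 4.75% of all probe sets tested were higher. Both the mural sum and Notch3 were lowest in WT-B, and the mural sum was highest in KO-A and Notch3 in KO-B. Of 6 T cell genes, cells that also use Notch1, 4 were above the filter, and all 6 were lower in the KO mean with 0 called by limma. Their summed signal ran from 280 to 579 in the KO-labelled arrays and from 329 to 1280 in wild type. Against WT-B, Cd3d (0.25), Cd3g (0.45), Cd8a (0.29) and Cd2 (0.05) were higher in the KO mean, and Cd3e (-0.76) and Cd4 (-0.07) were lower. The part of these cells in the receptor values was not tested.

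By counts, 2 of the 17 tested probe sets, those of Notch1 and Notch2 just described, had groups that did not overlap, both higher in the KO-labelled arrays. Over all probe sets tested 8.74% had no overlap in either direction and 4.75% were higher. For each of the 2, the exact two-sided permutation p was 0.1, which is the smallest that 3 against 3 arrays can give. On the signals as deposited 6 of the 17 probe sets had no overlap, where 24.1% of all probe sets did.

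The ligand genes gave no call. Dll1, a ligand of secretory progenitors in the crypt, has a single probe set, 1419204_at. It read 7.28, 7.68 and 7.56 in the KO-labelled arrays, against 7.31, 7.27 and 7.44 in wild type. KO-A lay level with WT-A and WT-B, and the other 2 lay above all wild-type arrays. The log2 difference was 0.16 (SE 0.19, 95% interval -0.28 to 0.60, limma adjusted p = 0.916). Dll4, which acts with Dll1 in the crypt and is also the ligand of sprouting vessels, read 5.59, 5.52 and 5.54 in the KO-labelled arrays on probe set 1421827_at, against 5.27, 5.66 and 5.26 in wild type. WT-B was the highest of the 6 arrays. In log2 terms the groups differed by 0.15 (SE 0.20, 95% interval -0.31 to 0.61, limma adjusted p = 0.918), and on probe set 1421826_at by 0.27 (SE 0.21, limma adjusted p = 0.915). Of 12 endothelial genes 4 were above the filter, and Pecam1 and Cdh5, which define the cell type, were below it. The summed endothelial signal ran from 198 to 269 in the KO-labelled arrays and from 257 to 266 in wild type, and its part in the Dll4 values was not tested.

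Jag1 encodes a Jagged ligand and had the largest difference among the brightest probe sets of the 10 genes, together with the largest standard error. Its probe set 1434070_at read 8.55, 8.58 and 7.92 in the KO-labelled arrays, against 8.32, 8.09 and 7.22 in wild type. The array titled C was the lowest of each group, and KO-C lay below WT-A and WT-B. This gave a log2 difference of 0.47 (SE 0.32, 95% interval -0.25 to 1.20, limma adjusted p = 0.915). Without WT-C, whose deposited signal for Jag1 was 94.7 against 243 and 276 in WT-A and WT-B, the difference was 0.14. The other Jag1 probe sets did not share 1 pattern. On 1421106_at WT-C was again the lowest array at 5.05, with WT-A and WT-B at 6.28 and 6.56 and the KO-labelled arrays at 6.73, 6.26 and 6.28. On 1421105_at WT-B was the lowest at 4.28 and WT-C, at 5.84, the highest of all 6 arrays. The log2 differences on these probe sets were 0.46 (SE 0.38) and 0.31 (SE 0.36).

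Jag2, the other Jagged ligand gene, read 5.51, 4.83 and 5.48 in the KO-labelled arrays on probe set 1426430_at, against 5.06, 5.74 and 5.21 in wild type. KO-B was the lowest of the 6 and WT-B the highest. The log2 difference was -0.06 (SE 0.27, 95% interval -0.69 to 0.56, limma adjusted p = 0.978). The other Jag2 probe set lay below the filter, at 4.96 ± 0.46 in the KO-labelled arrays and 5.16 ± 0.15 in wild type (SD, n = 3 each).

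Rbpj, the DNA-binding protein through which all Notch receptors act, was the gene with the smallest difference. Its brightest probe set, 1454896_at, read 8.18, 8.15 and 8.29 in the KO-labelled arrays, against 8.16, 8.27 and 8.21 in wild type. All 6 arrays lay within a narrow band and the groups were interleaved. In log2 terms the groups differed by -0.0029 (SE 0.17, 95% interval -0.38 to 0.38, limma adjusted p = 0.998). The other Rbpj probe sets gave 0.05 (SE 0.25) and 0.04 (SE 0.24), so all 3 probe sets of the gene lay close to 0.

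The target genes, which read out the activity of the pathway, gave no call either. Hes1, the repressor of Atoh1, read 8.23, 8.28 and 8.37 in the KO-labelled arrays on its single probe set, 1418102_at, against 8.08, 8.14 and 8.29 in wild type. WT-C lay above KO-A and KO-B. This gave a log2 difference of 0.12 (SE 0.17, 95% interval -0.26 to 0.51, limma adjusted p = 0.920), and the SD within the groups was 0.07 in the KO-labelled arrays and 0.11 in wild type. The deposited Hes1 signals were 374, 328 and 368 in the KO-labelled arrays and 204, 287 and 197 in wild type.

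Nrarp encodes a small ankyrin-repeat protein that binds the Notch intracellular part and damps the signal, and is itself induced by Notch. Its brightest probe set, 1417985_at, read 9.09, 8.51 and 8.92 in the KO-labelled arrays, against 8.63, 8.78 and 8.23 in wild type. KO-B lay below WT-A and WT-B, and WT-C was the lowest. The log2 difference was 0.29 (SE 0.23, 95% interval -0.22 to 0.81, limma adjusted p = 0.915). The second Nrarp probe set, 1417986_at, read 6.70, 5.88 and 6.18 in the KO-labelled arrays, against 6.27, 6.50 and 6.07 in wild type, or -0.02 in log2 terms (SE 0.26, limma adjusted p = 0.990). On both Nrarp probe sets KO-A was the highest of the 6.

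**Figure D2:**
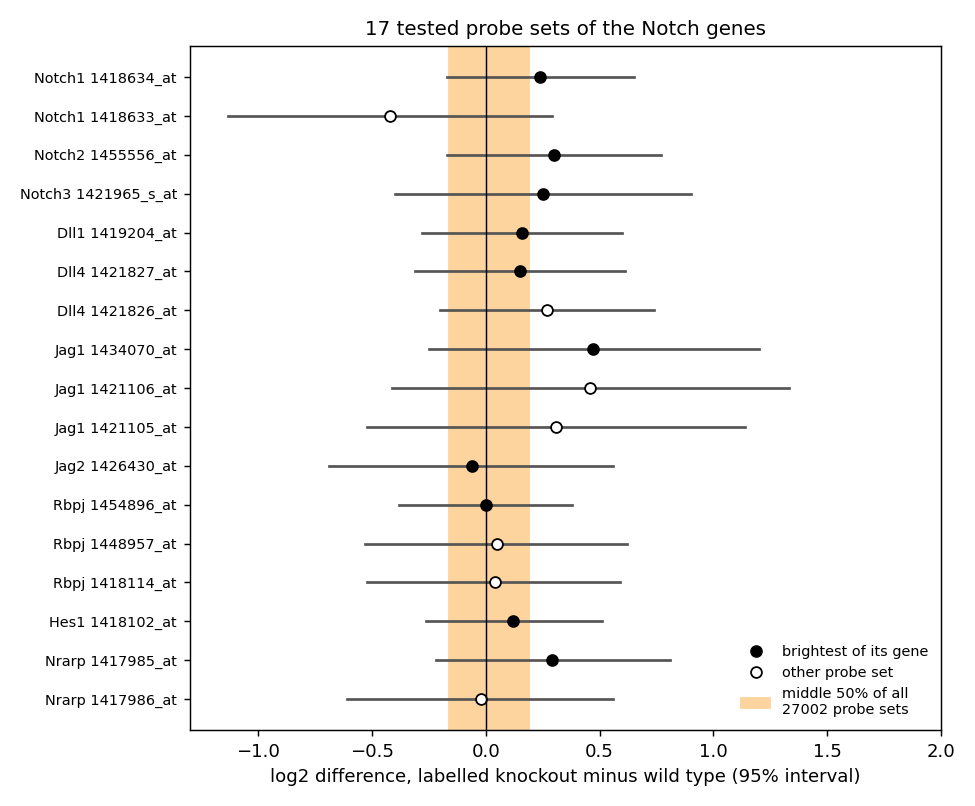
Points give the log2 difference of the KO-labelled arrays minus wild type for the 17 tested probe sets, with 95% confidence intervals as lines, filled points for the brightest probe set of a gene and open points for its others. The shaded band holds the middle 50% of the differences of all 27002 probe sets, from -0.16 to 0.19, and every interval crosses 0.

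Promoter windows were read for the genes with an entry in the RefSeq table (build GRCm38.p6), from 250 bases before to 50 after the start. Of the 10 genes 9 matched, with 11 windows, and Hes1 did not. The windows of Nrarp, as the matched target gene, and of Notch2, as 1 of the 2 genes whose groups did not overlap, are given 5′ to 3′ on the + strand with CpG dinucleotides in capitals, to show what kind of promoter these genes have. The positions are chr2:25180508-25180807 for Nrarp and chr3:98013288-98013587 for Notch2.
Nrarp: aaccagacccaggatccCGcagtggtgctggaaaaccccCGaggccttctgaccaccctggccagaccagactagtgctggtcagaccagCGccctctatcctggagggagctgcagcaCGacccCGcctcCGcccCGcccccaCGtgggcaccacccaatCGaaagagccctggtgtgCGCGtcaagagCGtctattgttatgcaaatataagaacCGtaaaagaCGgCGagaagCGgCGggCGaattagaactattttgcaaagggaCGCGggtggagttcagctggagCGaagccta
Notch2: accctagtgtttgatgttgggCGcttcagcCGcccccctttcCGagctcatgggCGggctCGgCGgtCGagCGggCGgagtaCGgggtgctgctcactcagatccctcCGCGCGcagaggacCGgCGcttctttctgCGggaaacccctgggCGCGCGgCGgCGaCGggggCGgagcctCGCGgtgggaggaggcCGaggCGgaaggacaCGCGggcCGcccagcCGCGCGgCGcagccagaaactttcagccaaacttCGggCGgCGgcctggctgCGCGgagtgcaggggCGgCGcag
The Nrarp window held 21 CpG dinucleotides and the Notch2 window 41. All 11 windows were rich in them, with 15 to 63, against a median of 7 over 32851 windows of the table, of which 34.6% held 15 or more. The core letters of the Rbpj motif, GTGGGAA, and their reverse complement were in 0 of the 11 windows and in 6.38% of all windows. This says only that these letters are not in these windows.

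The differences were set against single wild-type arrays, because WT-A and WT-C had the higher Gapdh ratios. WT-B itself stood apart in pancreatic genes. The mean log2 value of the 7 pancreas genes with a probe set was 5.41 to 5.64 in the KO-labelled arrays, against 7.49 in WT-B and 5.49 in both WT-A and WT-C, although only 2 of the 7 were above the filter over all arrays. Cela2a, a pancreatic elastase gene, had deposited signals of 1.46 to 18.3 in the KO-labelled arrays, against 206 in WT-B, 7.44 in WT-A and 5.08 in WT-C. Against the mean of WT-A and WT-C the KO-labelled arrays were higher for 10 of 10 genes by the brightest probe set, with a median log2 difference of 0.21, and over all probe sets tested the median was 0.03. Against WT-B they were higher for 7 of 10 genes, with a median of 0.13, and over all probe sets tested it was -0.01. Counted over all 17 tested probe sets of the 10 genes, 15 were higher against WT-A and WT-C, with a median of 0.13, and 9 against WT-B, with a median of 0.06. The Notch1 difference was 0.10 against WT-B and 0.31 against WT-A and WT-C, and that of Nrarp was 0.06 against WT-B and 0.41 against WT-A and WT-C. For Dll4 it was -0.11 against WT-B and 0.28 against WT-A and WT-C, and for Jag2 it was -0.47 against WT-B and 0.14 against WT-A and WT-C, so that both signs turned. Notch3 ran the other way, with 0.65 against WT-B and 0.05 against WT-A and WT-C. With the Gapdh ratio as a covariate limma called 0 of the 17 probe sets, their median was -0.03, and the signs of Dll4 (-0.04), Jag1 (-0.03) and Nrarp (-0.11) turned. In the same fit Jag2 lay further below 0 (-0.40), Notch1 (0.13) and Notch2 (0.16) came closer to 0, and Notch3 (0.90), Dll1 (0.29) and Hes1 (0.22) lay further above 0. Without adjustment 2 of the 17 probe sets, 1 of Jag1 and 1 of Notch3, were under 0.05 in that fit, where 3.29% of all were. The Jag1 value of -0.03 is that of its brightest probe set, and which of the 3 Jag1 probe sets was under 0.05 is not given here. The higher mean of the KO-labelled group in most Notch genes thus moved with the wild-type arrays used and with the Gapdh ratio in the fit. Every KO-labelled array had a lower Gapdh ratio than every wild-type array, so the ratio and the label cannot be told apart here. What part the choice of wild-type arrays, or the pancreatic signal of WT-B, has in the higher mean was not tested.

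**Figure D3:**
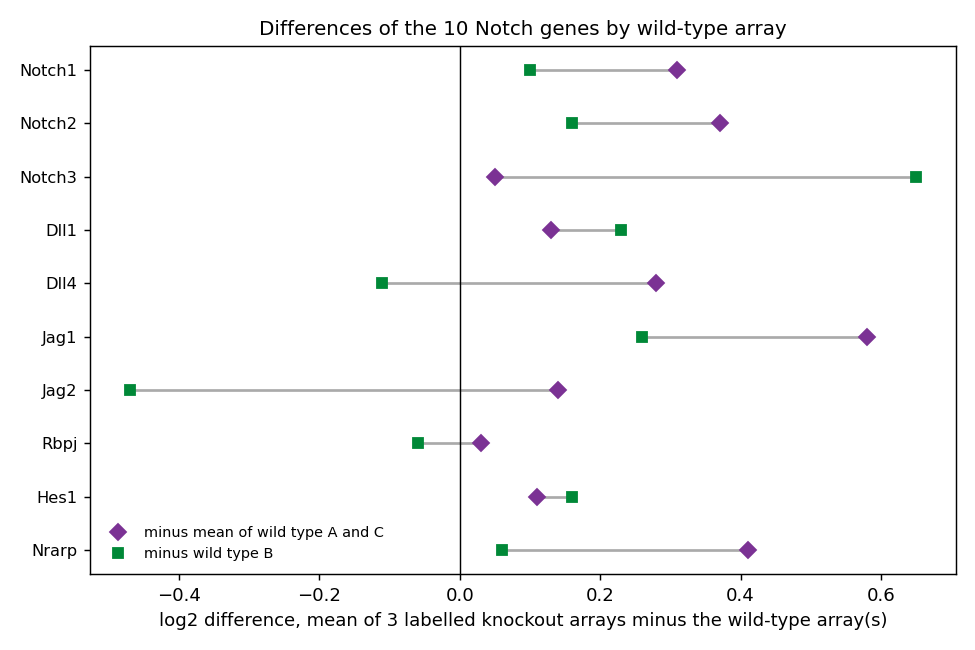
For the brightest probe set of each gene, the mean of the 3 KO-labelled arrays minus WT-B (squares) and minus the mean of WT-A and WT-C (diamonds) is plotted in log2 units. The differences from WT-A and WT-C are all above 0, and those of Dll4, Jag2 and Rbpj from WT-B are below 0.

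Other genes of the pathway gave no call. Of 73 listed genes 69 had a named probe set and 56 were tested, each by its brightest probe set. limma called 0 of the 56 higher and 0 lower, and 1 had an unadjusted p under 0.05. By the brightest probe set of every gene, 3.94% of all tested genes did. Of the 56 differences 29 were above 0 and 27 below, with a median of 0.01, against 0.02 over all probe sets. The groups did not overlap for 2 of the 56 genes, Notch4, which was higher in the KO-labelled arrays, and Gfi1, which was lower. By the brightest probe set of every gene, 9.06% of all tested genes had no overlap.

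Among the other receptors and ligands 5 genes were tested. Notch4, a receptor known from endothelial cells, read 6.29, 6.72 and 6.08 in the KO-labelled arrays, against 5.92, 5.78 and 5.48 in wild type. Every KO-labelled array lay above every wild-type array. In log2 terms the groups differed by 0.64 (SE 0.24, 95% interval 0.10 to 1.18, limma adjusted p = 0.915; unadjusted p = 0.0261), which did not pass over all probe sets. Of the 12 endothelial genes 8 were lower and 4 higher in the KO mean, with a median log2 difference of -0.18. However, 8 of the 12 were below the filter. Of the 4 above it, Egfl7 stood at 0.30, Kdr at -0.36, Eng at -0.36 and Esam at -0.25. The part of endothelial cells in the Notch4 values was not tested. Dll3, a ligand-like protein, read 5.34 ± 0.20 in the KO-labelled arrays and 5.01 ± 0.32 in wild type (SD, n = 3 each; limma adjusted p = 0.915).

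Most of the enzymes that prepare and cut the receptors lay close to 0, and Furin lay furthest from it. Of 8 tested genes 4 were above and 4 below 0, with a median of -0.04 and a range of -0.32 to 0.05. Furin, the convertase that cleaves the receptor precursor, stood at -0.32 (SE 0.21) and Psenen, a gamma-secretase subunit, at -0.14 (SE 0.14). Adam10, the protease that makes the first cut after ligand binding, read 11.37 in the KO-labelled arrays and 11.32 in wild type. Of 5 genes for sugar modification of the receptors, 3 were above 0 and 2 below, with Poglut1, an O-glucosyltransferase, at 0.33 (SE 0.25) and Pofut1, the O-fucosyltransferase, at 0.24 (SE 0.20). Against WT-B, Poglut1 stood at -0.16, Pofut1 at 0.05, Furin at 0.01 and Psenen at -0.10. Against the mean of WT-A and WT-C they stood at 0.58, 0.34, -0.48 and -0.16.

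The 14 genes of ubiquitination and endocytosis were divided 7 to 7 around 0, with a range of -0.72 to 0.53. Numbl, a relative of the Notch inhibitor Numb, stood at 0.53 (SE 0.36) and Epn1, an endocytic adaptor, at -0.31 (SE 0.21). Of 12 nuclear partners of Rbpj and Notch 6 were above and 6 below 0, with the corepressor gene Spen at -0.31 (SE 0.21) and Ctbp2 at 0.20 (SE 0.18). Against WT-B, Numbl stood at 1.22, Epn1 at -0.37, Spen at -0.32 and Ctbp2 at -0.10. Against the mean of WT-A and WT-C they stood at 0.19, -0.29, -0.30 and 0.34.

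Of 17 other target genes 8 were tested. Hes5, Hey1, Hey2 and Olfm4 were among the 9 below the filter, so they could not be used as readouts. Cdkn1a, a cyclin-dependent kinase inhibitor gene, stood at -0.47 (SE 0.28) and Hes6 at 0.32 (SE 0.19). The Cdkn1a difference was 0.13 against WT-B and -0.77 against the mean of WT-A and WT-C, and that of Hes6 was 0.04 and 0.46. In a list of secretory factors, Atoh1, which Hes1 represses, read 9.56 in the KO-labelled arrays and 9.71 in wild type, or -0.15 in log2 terms (SE 0.25, limma adjusted p = 0.928). Gfi1, which acts in secretory cells after Atoh1, read 7.52, 7.51 and 7.36 in the KO-labelled arrays, against 8.46, 7.80 and 7.57 in wild type. The groups did not overlap, and WT-A stood above the rest. The Gfi1 log2 difference was -0.48 (SE 0.25, limma adjusted p = 0.915), that of Spdef, a factor of goblet cell maturation, -0.28 (SE 0.29), and that of Neurog3, the factor of enteroendocrine cells, 0.14 (SE 0.23). Against WT-B, Atoh1 stood at -0.47, Gfi1 at -0.33, Spdef at -0.48 and Neurog3 at -0.22. Against the mean of WT-A and WT-C they stood at 0.01, -0.55, -0.19 and 0.32.

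**Figure D4:**
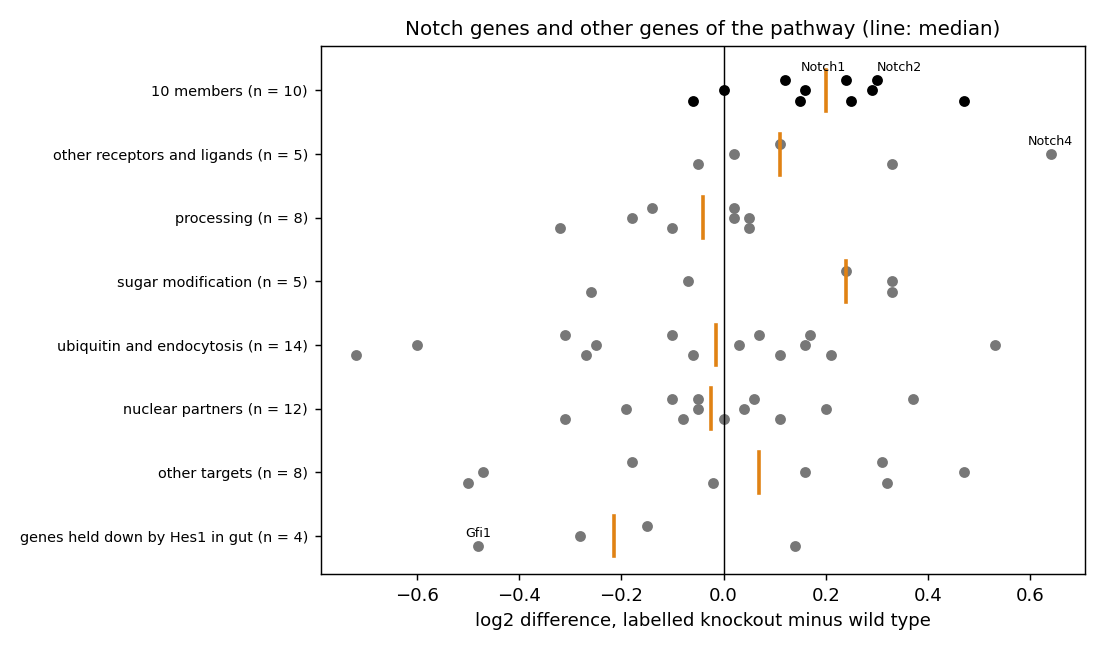
Each point is the log2 difference of 1 gene, the KO-labelled arrays minus wild type, by its brightest probe set, for the 10 genes and for the 7 lists of other pathway genes, and the vertical lines are medians. Genes whose groups did not overlap are named, and the lists lie on both sides of 0. The list labelled as held down by Hes1 also holds Gfi1, which acts after Atoh1.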

How the data were processed

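RNA of mouse colonic mucosa was measured on 6 arrays, 3 titled KO and 3 titled WT. The authors deposited linear MAS5 intensities, per the submitters' processing notes, for 45101 probe sets with 1 column per array. No source here gives the MAS5 version, target or scaling. Precision is limited by the number of arrays.

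Because the deposited signals were on unequal scales, log2(signal + 16) was quantile normalized over all probe sets. The 64 control probe sets and probe sets dimmer than the 40th percentile of the mean were left out, which left 27002. The test was limma's moderated test with a trended prior (limma 3.58.1, R 4.3.3) on 4 residual plus 4.57 prior degrees of freedom, and p-values were adjusted by Benjamini-Hochberg over all 27002 at a threshold of 0.05. The platform annotation gives 1 symbol to 34945 probe sets, several to 932 and none here to 9160, and only the first kind were named. Updating through gene identifiers changed 0 symbols.

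The 10 genes, the pathway and marker lists, the tests and the alternatives were chosen with earlier results of these data known. All probe sets of the 10 genes are reported. Of each pathway list the 2 genes with the smallest unadjusted p were named by rule. Adam10, Atoh1, Neurog3, the target genes below the filter and the Notch2 promoter were picked after seeing their values. The fit was checked on simulated data. Alternatives were other scalings, pseudocounts of 1 and 64, no filter or the 60th percentile, 1 row per gene, other variance models, array weights, a replicate block by title letter, the Gapdh ratio as a covariate, WT-B as the only control, and each array left out.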

Additional observations from a re-analysis of the deposited data

How the results depend on the processing

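The 10 genes stayed uncalled by their brightest probe sets under all 21 other settings. Notch2, Notch3, Dll1 and Hes1 kept their direction in each setting that gave a value, but their size moved. With 1 array left out Notch3 lay between 0.05 (without WT-B) and 0.51 (without WT-C), Dll1 between 0.07 (without KO-B) and 0.28 (without KO-A), Notch2 between 0.18 (without KO-B) and 0.38 (without KO-A), and Hes1 between 0.08 (without KO-C or WT-A) and 0.19 (without WT-C). Jag1 lay between 0.14 (without WT-C) and 0.70 (without WT-A), Nrarp between 0.13 (without WT-C) and 0.46 (without KO-B), and Dll4 between 0.09 (without WT-A or WT-C) and 0.28 (without WT-B). The 3 low probe sets (Notch3, Dll4, Jag2) gave none with a filter at the 60th percentile. With array weights by limma's default method 1 member probe set, of Rbpj, 11 other pathway genes and 5354 probe sets of the whole table were called, and 5 member probe sets had an unadjusted p under 0.05, where 37.1% of all did. That estimate stopped before it converged and gave WT-A a weight of 36.0 against 0.199 to 1.41 for the other arrays. The gene-by-gene method, added after seeing the data, called 0 of the member probe sets and 74 of the whole table. The whole-table count was 1 on the signals as deposited, 1 when centred on array medians, 1 with the replicate block and 2 when WT-B alone was the control. It was 0 to 2 when arrays were left out. The block took the title letters as replicates. Deviations from the group means correlated at -0.07, -0.16 and 0.43 between arrays of the same letter, and at 0.54 between KO-A and WT-B. With 3 arrays per group such deviations depend on each other, so these values cannot decide whether the letters pair the arrays.

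On the signals as deposited the median of the member probe sets was 0.51, where that of all probe sets was 0.40, and 6 had no overlap. With the Gapdh ratio as a covariate the median was -0.03, and Dll4 read -0.04, Jag1 -0.03 and Nrarp -0.11, while Notch3 rose to 0.90, Dll1 to 0.29 and Hes1 to 0.22. The count with no overlap was 1 when the probe sets of a gene were averaged, 9 with WT-B alone (46.3% of all) and 3 to 5 with 1 array left out, where 13.9% to 35.5% of all probe sets had none. Of single genes, Notch1 turned to -0.09 with the mean of its probe sets and Dll4 to -0.11 with WT-B alone. Jag2 turned to 0.11 as deposited, 0.08 and 0.02 with the 2 kinds of array weights, and lay between -0.20 and 0.16 when arrays were left out. Rbpj turned to 0.48 as deposited, 0.25 when median-centred, 0.03 with the mean of its probe sets, 0.03 and 0.02 with array weights, and lay between -0.04 and 0.03 when arrays were left out. The cause of these turns was not tested. The number of arrays limits the precision, and 3 of the 20 probe sets lay below the filter.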
